A study of Homo sapiens with 6 samples.

Results

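Potassium channel genes were taken from RNA-seq of U251 cells, an established line of human glioblastoma, the most malignant astrocytic brain tumor. They were defined as the protein-coding genes whose symbol begins with KCN, continues with at least 1 further letter and then has a digit, which gave 96 of the 58735 genes in the table, or 96 of 19951 protein-coding genes. A further 21 genes of other biotypes with a KCN symbol, mostly antisense transcripts, were not counted among them. The control group (NC, n = 3) received sterile deionized water, and the TNF-α group (n = 3) received recombinant human tumor necrosis factor-α, an inflammatory cytokine, at 10 ng/mL for 24 h. All 6 libraries came from this single cell line, without genetic modification in the labels, and were made from poly(A)-selected RNA of separate biological replicates. The comparison asks which of these channel genes differed in transcript level between TNF-α treated and untreated cells.

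Potassium channels are membrane proteins that let potassium ions pass selectively and so set the resting potential and end electrical signals. The pore is formed by subunits of several families: voltage-gated (Kv, including KCNQ and EAG types), calcium- or sodium-activated (KCa), inward rectifier (Kir) and two-pore-domain leak (K2P) subunits, and further proteins modify the pore without forming it alone. Astrocytes rely on Kir and K2P channels to clear extracellular potassium, and glioma cells are known for calcium-activated channels that take part in volume change and migration.

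Each library held between 31992167 and 37897044 reads in genes. The potassium channel genes took 0.0234% to 0.0239% of them in NC. Their share was 0.0223%, 0.0179% and 0.0177% in TNF-α, here and below in the order of replicates 1, 2 and 3. Values are given as FPKM, reads divided by gene length and by a scaled library size, so that levels can be compared between genes. That scaling differed between libraries: the scaled size was 0.925 to 0.959 of the reads in genes for the NC libraries and TNF-α replicate 1, but 0.693 and 0.759 in TNF-α replicates 2 and 3, which raises every FPKM of those 2 libraries relative to RPM, reads divided only by the reads in genes of their library. TNF-α replicates 2 and 3 also stood apart from the other 4 libraries on a first principal component holding 88.4% of the variance over the genes tested, and genes over 8 kb held 16.6% and 17.9% of their reads against 28.8% to 29.1% elsewhere. TNF-α replicate 1 was close to the NC libraries on both measures. No batch was given in the labels, the part of this difference in any result below was not tested, and results that turn on these libraries are given with and without them. The glioma markers VIM (325 to 974 FPKM), NES (40.8 to 69.2 FPKM), SOX2 (22.6 to 66.3 FPKM) and CD44 (133 to 141 FPKM) were present in all libraries. FABP7 was at 1.33 to 3.56 FPKM. GFAP, the astrocyte filament protein, stood at 7.10 to 9.47 FPKM in NC and 1.58 to 2.60 FPKM in TNF-α libraries, and AQP4 and S100B, which also mark mature astrocytes, were listed at 0 or at most 0.168 FPKM. Among 10 markers of other cell types, PTPRC and CD3E were at 0 in all 6 libraries. SYT1 was above 1 FPKM in all 6, at 3.54 to 3.76 FPKM in NC and 3.64, 1.60 and 1.93 FPKM in TNF-α replicates 1, 2 and 3. KRT8 passed 1 FPKM only in TNF-α replicates 2 and 3, at 1.40 and 1.15 FPKM. The summed level of the 10 was 4.54 to 4.88 FPKM in NC and 3.23 to 4.32 FPKM in TNF-α libraries.

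The U251 cells carried a small set of potassium channel transcripts at low levels. Of the 96 genes, 36 had reads in all 6 libraries, 37 in 1 to 5 libraries and 23 in none (24.0%, against 17.9% of all protein-coding genes without a read). For the 23 without a read, a count of 3 would have given between 0.00478 and 0.107 FPKM depending on gene length and library, so lower levels were not detectable at this depth. This floor does not cover reads that may go uncounted where such a gene overlaps another, as KCNA6 does over 100% of its exonic length. Summed over the 96 genes, the level was 49.6, 48.9 and 51.0 FPKM in NC and 44.0, 52.2 and 47.3 FPKM in TNF-α. The sums overlapped between groups, with 49.8 ± 1.08 FPKM (SD, n = 3) in NC and 47.8 ± 4.11 FPKM (SD, n = 3) in TNF-α (exact two-sided permutation test, p = 0.5, smallest possible p = 0.1). In TPM, a scale per length that puts every library on the same total, the same sums were 191, 191 and 192 in NC and 165, 113 and 116 in TNF-α libraries, without overlap. Whether the groups overlapped in the summed level thus depended on the scale. In bulk samples a lower level in every cell and a lower share of cells with the transcript cannot be told apart.

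**Figure D1:**
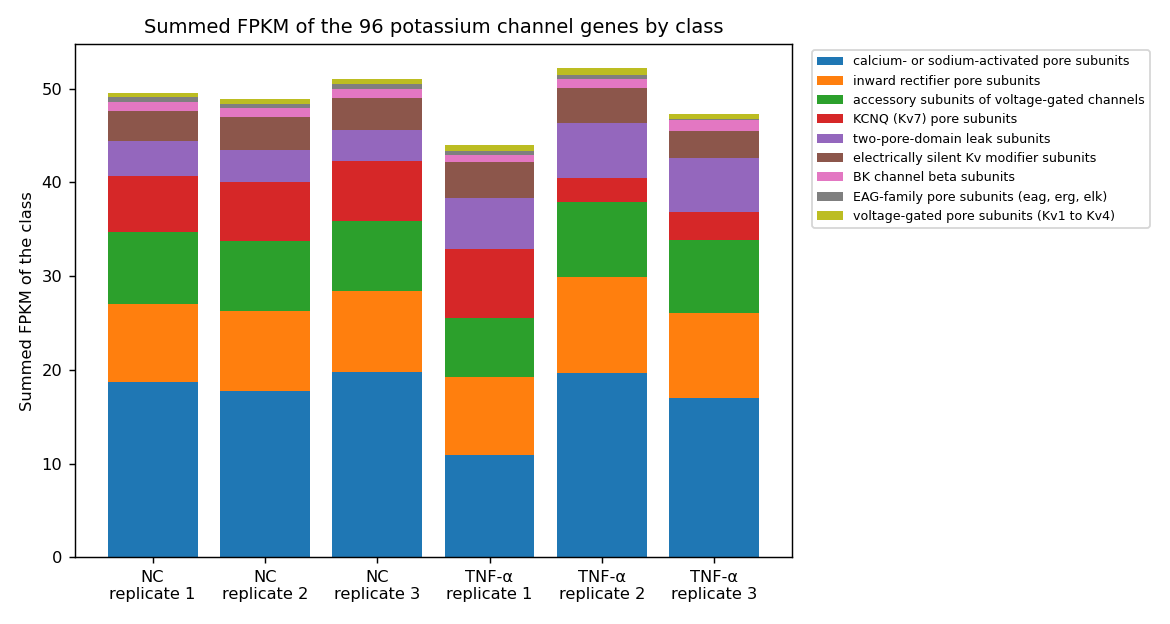
Stacked bars of the summed FPKM of the 96 potassium channel genes in each of the 6 libraries, coloured by class. The bars reach 44.0 to 52.2 FPKM, the calcium- or sodium-activated pore subunits form the lowest and largest block in every library, and that block is smallest in TNF-α replicate 1 at 10.9 FPKM.

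The 9 genes that reached 1 FPKM in at least 3 libraries, the condition for being tested, were KCNN4, KCNQ5, KCNJ8, KCNK1, KCNJ2, KCNS3, KCNE4, KCNAB2 and KCNMA1. KCNN4 alone held 35.4% of the summed NC level, and the top 7 genes held 80.6%. Log2 fold changes below are TNF-α over NC on log2(FPKM + 1), from limma with its standard error (SE), and adjusted p-values are Benjamini-Hochberg values over 12136 genes. None of the 9 passed an adjusted p of 0.05, a threshold that 1.01% of all genes tested passed. At an unadjusted p under 0.05 there were 3 of 9, KCNK1, KCNE4 and KCNMA1, against 24.2% of all genes tested, and limma-voom on the recovered reads likewise called 0 of the 35 genes it could fit, against 0.523% of genes, with 11 of 35 at an unadjusted p under 0.05 against 28.8%. The median log2 fold change of the 9 was 0.11, beside 0.04 over all genes tested, but its sign depended on the scale, being -0.31 in TPM beside -0.42 over all genes, -0.21 with a length correction, -0.11 with a GC and length correction and, over the 35 genes of limma-voom, -0.61 beside -0.28. The groups did not overlap in FPKM for 3 of the 9 genes, 2 higher and 1 lower in TNF-α, beside 14.8% higher and 15.3% lower among all genes tested. KCNMA1 was tested only because its TNF-α values reached 1 FPKM.

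**Figure D2:**
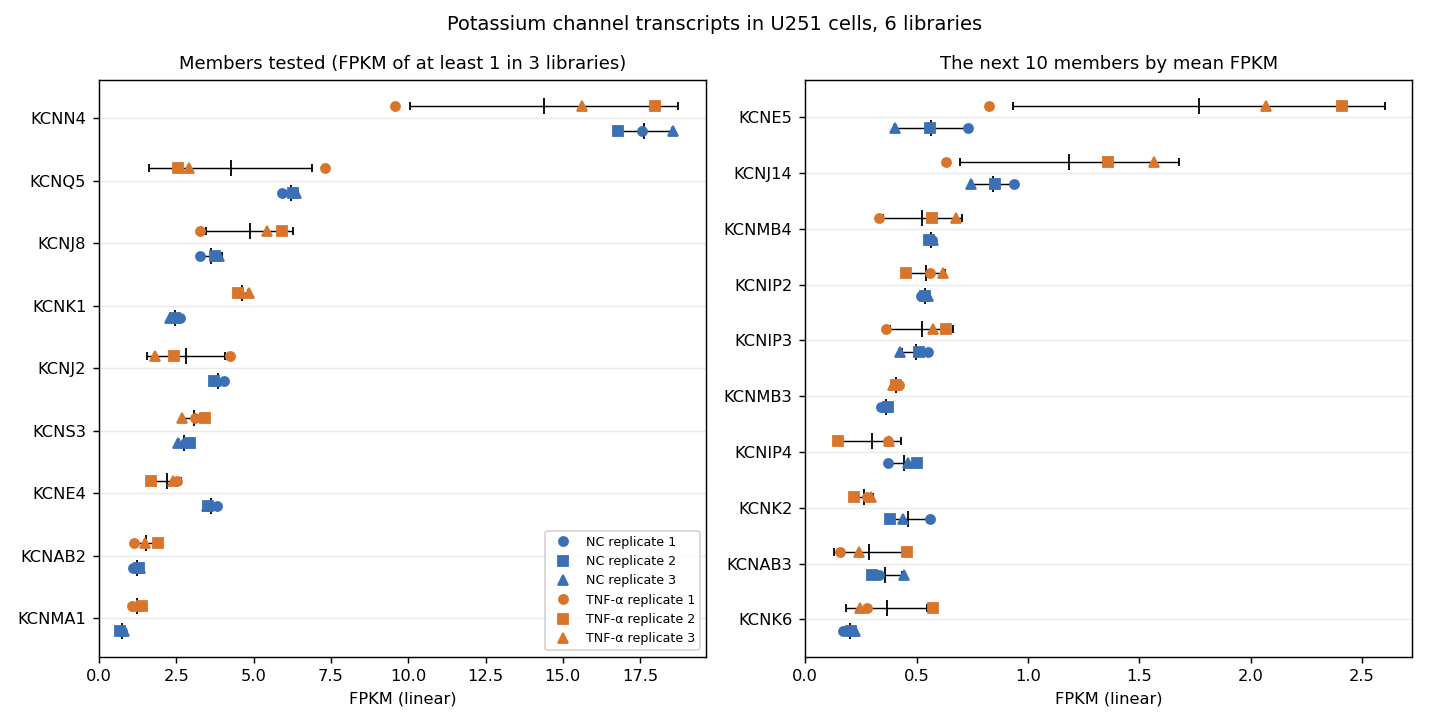
FPKM (linear axes from 0) of the 9 genes tested and of the next 10 genes by mean FPKM, with 1 point per library, marker shape for the replicate, and the mean ± SD of each group as a black bar. KCNK1 lies at 2.28 to 2.63 in NC and 4.49 to 4.85 in TNF-α libraries, and TNF-α replicate 1 lies apart from replicates 2 and 3 for KCNN4, KCNQ5, KCNJ2 and KCNE5.

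Among the two-pore-domain subunits, which carry leak current, KCNK1 (TWIK-1, ENSG00000135750, GRCh38 chromosome 1, 233614004 to 233672512) was the only 1 of 15 that was tested, and it had the smallest limma p of the 9 genes tested. Its FPKM was 2.63, 2.47 and 2.28 in NC and 4.53, 4.49 and 4.85 in TNF-α. All 3 TNF-α libraries lay above all 3 NC libraries, and so they did in RPM, at 9.10, 8.60 and 7.66 in NC against 15.2, 11.3 and 13.3 in TNF-α. The log2 fold change was 0.70 (SE 0.11, limma adjusted p = 0.0577), which did not pass the threshold. Other fits of all 6 libraries gave 0.64 in limma-voom (adjusted p = 0.172) and 0.37 in TPM (limma adjusted p = 0.259). They gave 0.44 with the length correction (limma adjusted p = 0.191) and 0.80 with quantile normalization (limma adjusted p = 0.0387). On log2(FPKM + 1) without TNF-α replicate 1 the fold change was 0.71 (limma adjusted p = 0.00014), a fit in which 79.4% of all genes passed. With TNF-α replicates 2 and 3 left out it was 0.68 (limma adjusted p = 0.0166), a fit in which 6.03% passed and in which the lone TNF-α library is assumed to vary like the NC libraries. In limma-voom, which works on reads, leaving out TNF-α replicate 1 gave 0.53 (limma-voom adjusted p = 0.00317), where 69.7% of all genes passed. Leaving out replicates 2 and 3 there gave 0.85, so that the size differed between the TNF-α libraries on that scale while the direction did not.

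The other leak subunits were lower in level. KCNK2 (TREK-1, a channel opened by membrane stretch) had 0.559, 0.382 and 0.438 FPKM in NC and 0.279, 0.217 and 0.295 FPKM in TNF-α, with every TNF-α library below every NC library (limma-voom log2 fold change -1.07, SE 0.33, adjusted p = 0.172). That value was -1.24 without TNF-α replicate 1 (adjusted p = 0.00903) and -0.74 with replicates 2 and 3 left out (adjusted p = 0.381). KCNK6 (TWIK-2, a relative of KCNK1) had 0.170, 0.208 and 0.222 FPKM in NC and 0.277, 0.575 and 0.247 FPKM in TNF-α. Its groups did not overlap in FPKM but did in RPM (limma-voom log2 fold change 0.53, SE 0.35, adjusted p = 0.298). KCNK3 (TASK-1, an acid-sensitive channel) was also lower in all 3 TNF-α libraries, at 0.129 to 0.157 FPKM in NC and 0.0794 to 0.0992 FPKM in TNF-α, on 12 to 32 reads per library (limma-voom log2 fold change -0.93, SE 0.34, adjusted p = 0.172). In the same class KCNK4, KCNK5, KCNK10, KCNK16, KCNK17 and KCNK18 had no read. For KCNK4, 61.9% of the exonic length overlaps another gene on the same strand, so its lack of reads is less certain. Summed over the 15, the level was 3.52 ± 0.240 FPKM (SD, n = 3) in NC and 5.69 ± 0.265 FPKM (SD, n = 3) in TNF-α, most of it KCNK1. KCNK3 was not among the genes named by rule and was chosen after its values were seen.

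Calcium- and sodium-activated pore subunits held the most abundant of the 96 genes. KCNN4 (KCa3.1, the intermediate-conductance channel gated by calmodulin, ENSG00000104783, chromosome 19, 43766533 to 43781261) had 17.5, 16.8 and 18.6 FPKM in NC and 9.56, 18.0 and 15.6 FPKM in TNF-α. TNF-α replicate 1 was far below the NC libraries and the other 2 TNF-α libraries were not. In RPM the values were 57.0, 54.8 and 58.5 in NC and 30.1, 42.4 and 40.4 in TNF-α, so that all 3 TNF-α libraries lay below all NC libraries on that scale. The log2 fold change was -0.32 (SE 0.23, limma adjusted p = 0.318) over all libraries, -0.07 without TNF-α replicate 1 (limma adjusted p = 0.48) and -0.82 with TNF-α replicates 2 and 3 left out (limma adjusted p = 0.0044). A correction for GC content and length gave -0.92 (limma adjusted p = 0.00727), where 2.04% of all genes passed. Its direction was lower in all 22 alternative settings, which refit these same libraries or a part of them.

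KCNMA1 (the large-conductance BK channel, gated by both voltage and calcium, chromosome 10, 76869601 to 77638369) had 0.741, 0.666 and 0.826 FPKM in NC and 1.06, 1.39 and 1.24 FPKM in TNF-α. The groups did not overlap in FPKM, nor in RPM, where NC stood at 22.7 to 27.2 and TNF-α at 33.5 to 34.8. The log2 fold change was 0.35 (SE 0.12, limma adjusted p = 0.195). It was 0.98 (SE 0.32, limma adjusted p = 0.158) after the GC and length correction, 0.41 without TNF-α replicate 1 (limma adjusted p = 0.00995) and 0.24 with TNF-α replicates 2 and 3 left out (limma adjusted p = 0.457). Because its merged exons span 35644 bases, its 778 to 1282 reads per library give a low FPKM, and the pseudocount of 1 shrinks the fold change. Of its β subunits, which alter the calcium sensitivity and gating of BK channels, KCNMB4, the neuronal form, had 0.568, 0.557 and 0.575 FPKM in NC and 0.332, 0.570 and 0.676 FPKM in TNF-α, with overlap. In RPM, however, KCNMB4 was lower in every TNF-α library, at 2.59 to 2.64 in NC and 1.5, 1.92 and 2.5 in TNF-α (limma-voom log2 fold change -0.44, SE 0.26, adjusted p = 0.249). KCNMB3 had 0.342 to 0.374 FPKM in NC and 0.394 to 0.419 FPKM in TNF-α, but 47.5% of its exonic length overlaps other genes, PIK3CA among them, and its RPM overlapped between groups. The sodium-activated KCNT2 (Slick), chosen after its values were seen, had 52, 28 and 40 reads in NC and 23, 1 and 0 reads in TNF-α, replicates 2 and 3 nearly without reads (limma-voom log2 fold change -3.86, SE 1.11, adjusted p = 0.172). Without TNF-α replicate 1 KCNT2 was at -5.47 (limma-voom adjusted p = 9.58e-06), and with replicates 2 and 3 left out at -0.72 (limma-voom adjusted p = 0.5).

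Inward rectifiers, which pass potassium most readily near the resting potential, included 2 tested genes of 16. KCNJ8 (Kir6.1, the pore of a channel closed by ATP) had 3.25, 3.74 and 3.90 FPKM in NC and 3.27, 5.93 and 5.42 FPKM in TNF-α. Replicates 2 and 3 of TNF-α were above the NC libraries and replicate 1 was within them (log2 fold change 0.31, SE 0.21, limma adjusted p = 0.274), and the direction turned in TPM, at -0.11, and with TNF-α replicates 2 and 3 left out, also at -0.11. A stretch of 10.8% of its exonic length overlaps another gene. Its regulatory partner ABCC9 (SUR2) had 0.348 to 0.593 FPKM in NC and 1.01, 0.385 and 0.475 FPKM in TNF-α, and ABCC8 (SUR1) had no read. KCNJ2 (Kir2.1, a strong rectifier that stabilizes the resting potential) had 4.03, 3.71 and 3.77 FPKM in NC and 4.24, 2.41 and 1.82 FPKM in TNF-α. Here too TNF-α replicate 1 parted from the others, being above the NC range while replicates 2 and 3 were below it (log2 fold change -0.39, SE 0.24, limma adjusted p = 0.246), and with those 2 left out the value was 0.12. KCNJ14 (Kir2.4) had 0.937, 0.850 and 0.746 FPKM in NC and 0.631, 1.36 and 1.57 FPKM in TNF-α, with replicate 1 below and replicates 2 and 3 above the NC libraries, and 25% of its exonic length overlaps other genes. The main astrocytic inward rectifier KCNJ10 (Kir4.1) had 2, 0 and 1 reads in NC and none in TNF-α, and its partner KCNJ16 had none at all.

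A pair of further Kir genes, KCNJ4 and KCNJ12, both strong rectifiers of the Kir2 group and both noticed after their values were seen, had more reads in every TNF-α library than in any NC library. KCNJ4 had 0 reads in all 3 NC libraries and 6, 6 and 4 in TNF-α, at least 5.47-fold higher in summed reads per total than a floor of 3 reads over the NC group. KCNJ12 had 0, 0 and 2 reads in NC and 10, 18 and 5 in TNF-α, but it is nearly identical to KCNJ18, which was listed at 0, so reads of the copies cannot be told apart. These counts are small, and neither gene entered a test.

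Voltage-gated pore subunits were sparse apart from KCNQ5 (Kv7.5, a subunit of the M-current, which dampens excitability). Its FPKM was 5.92, 6.28 and 6.38 in NC and 7.30, 2.56 and 2.91 in TNF-α. TNF-α replicate 1 was above all NC libraries while replicates 2 and 3 were below them by more than the spread of the NC group. The log2 fold change was -0.56 (SE 0.33, limma adjusted p = 0.23) over all libraries, -0.95 without TNF-α replicate 1 (limma adjusted p = 2.77e-05) and 0.21 with TNF-α replicates 2 and 3 left out. KCNQ1 had no read, and KCNQ3 had 1 read in TNF-α replicate 2 alone. Of the 17 Kv1 to Kv4 subunits none was tested, 9 had no read, among them 7 of the 8 KCNA genes (Kv1), and the class sum was 0.494 ± 0.0471 FPKM (SD, n = 3) in NC and 0.615 ± 0.0853 FPKM (SD, n = 3) in TNF-α. Among those without a read, KCNA6 overlaps GALNT8 on the same strand over 100% of its exonic length, and KCNC2 overlaps another gene over 35.5%. Their lack of reads may thus reflect how reads in overlaps were counted, which was not tested. KCND1 (Kv4.1), chosen after its values were seen, had 0.181, 0.147 and 0.155 FPKM in NC and 0.327, 0.339 and 0.191 FPKM in TNF-α, higher in all 3 TNF-α libraries in FPKM but with overlap in RPM. All 8 EAG-family genes, which include the eag and erg channels, had at least 1 read, and KCNH1 (eag1), also chosen after its values were seen, had 61, 51 and 55 reads in NC and 45, 15 and 12 in TNF-α, with 53.0% of its exonic length shared with other genes. For KCNH1, TNF-α replicate 1 lay much closer to the NC libraries than replicates 2 and 3 did.

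Electrically silent subunits form no channel alone but join Kv2 subunits and alter them. KCNS3 (Kv9.3) was the one tested, with 2.78, 2.93 and 2.57 FPKM in NC and 3.11, 3.43 and 2.68 FPKM in TNF-α. The groups overlapped (log2 fold change 0.11, SE 0.13, limma adjusted p = 0.488), and the sign turned in TPM, at -0.31. KCNB2, a Kv2 pore subunit that such silent subunits can join, had no read. KCNV2 (Kv8.2), chosen after its values were seen, had 12, 26 and 32 reads in NC and 42, 0 and 0 in TNF-α, the highest and the lowest counts both lying in the TNF-α group.

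Accessory subunits of voltage-gated channels numbered 13, of which 9 had reads in all 6 libraries. KCNE4 (a single-pass β subunit that inhibits KCNQ1 and some Kv1 channels, ENSG00000152049, chromosome 2, 223051814 to 223198399) had 3.81, 3.53 and 3.50 FPKM in NC and 2.52, 1.68 and 2.41 FPKM in TNF-α. Every TNF-α library was below every NC library, in RPM too, at 13.4 to 15.0 in NC and 4.81 to 9.62 in TNF-α. The log2 fold change was -0.54 (SE 0.15, limma adjusted p = 0.187), and it was -0.61 without TNF-α replicate 1 (limma adjusted p = 0.00173) and -0.39 with TNF-α replicates 2 and 3 left out (limma adjusted p = 0.0694). KCNAB2 (Kvβ2, a cytoplasmic oxidoreductase-like subunit) had 1.09, 1.3 and 1.34 FPKM in NC and 1.13, 1.92 and 1.49 FPKM in TNF-α, with overlap (log2 fold change 0.15, SE 0.15, limma adjusted p = 0.452) and a turned sign in TPM, at -0.21.

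None of the accessory subunits below the test filter passed in limma-voom on all 6 libraries. KCNE5, another single-pass β subunit, had 0.733, 0.559 and 0.402 FPKM in NC and 0.824, 2.41 and 2.07 FPKM in TNF-α. All 3 TNF-α libraries were above the NC libraries in FPKM and in RPM, replicate 1 only just (limma-voom log2 fold change 1.26, SE 0.45, adjusted p = 0.172), and 5.30% of its length overlaps ACSL4. The KCNE5 value was 1.62 without TNF-α replicate 1 (limma-voom adjusted p = 0.000237) and 0.54 with replicates 2 and 3 left out (limma-voom adjusted p = 0.582). Among the calcium-binding KChIP proteins, which bind Kv4 subunits, KCNIP2, with 12.2% of its exonic length under an antisense gene, had 0.521 to 0.550 FPKM in NC and 0.454 to 0.618 FPKM in TNF-α, and KCNIP3 had 0.427 to 0.552 FPKM in NC and 0.364 to 0.632 FPKM in TNF-α, both with overlap. KCNIP4 had 0.371, 0.502 and 0.461 FPKM in NC and 0.373, 0.145 and 0.377 FPKM in TNF-α, and KCNAB3 (Kvβ3) had 0.300 to 0.442 FPKM in NC and 0.156 to 0.455 FPKM in TNF-α. Neither gene had separated groups in FPKM, while in RPM KCNIP4 was lower in every TNF-α library, at 1.5, 2.05 and 1.81 in NC and 1.47, 0.428 and 1.22 in TNF-α. KCNAB1 (Kvβ1), chosen after its values were seen, had 48, 41 and 58 reads in NC and 29, 21 and 9 in TNF-α, lower in every TNF-α library (limma-voom log2 fold change -1.37, SE 0.43, adjusted p = 0.172), and its value was -1.71 without TNF-α replicate 1 (limma-voom adjusted p = 0.00383) and -0.70 with replicates 2 and 3 left out (limma-voom adjusted p = 0.455). KCNE1, the partner of KCNQ1, and KCNE3 had no read, and the nearly identical copy KCNE1B had 2 reads in TNF-α replicate 1 alone.

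**Figure D3:**
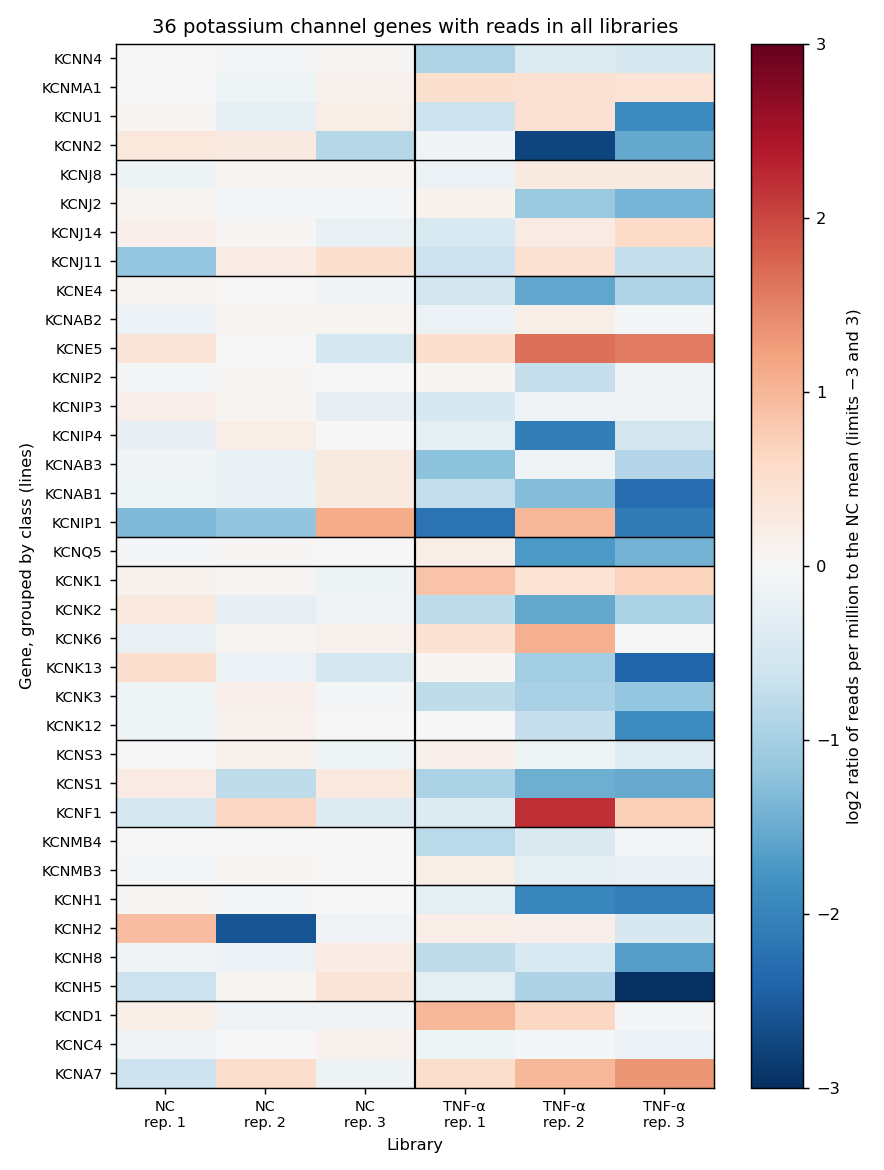
Colour map of the 36 potassium channel genes with reads in all 6 libraries (rows, grouped by class) by library (columns). Colour gives the log2 ratio of RPM to the NC mean, red above and blue below, with limits at -3 and 3. Blue cells are more frequent in the TNF-α columns, KCNK1, KCNMA1 and KCNE5 are red in all 3 of them, and KCNN4, KCNE4 and KCNK2 are blue in all 3.

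Across the 73 potassium channel genes with at least 1 read, the groups did not overlap in FPKM for 9 that were higher and 9 that were lower in TNF-α, together 24.7%, beside 26% of all protein-coding genes with a read (11.9% higher and 14.1% lower). In RPM there were 5 higher and 14 lower, together 26.0%, beside 27.2% of all protein-coding genes (7.62% higher and 19.6% lower). The shares were thus near those of protein-coding genes as a whole on either scale. The 5 that were higher on both scales were KCNK1, KCNMA1, KCNE5, KCNJ4 and KCNJ12. The 9 that were lower in FPKM were lower in RPM too, namely KCNE4, KCNK2, KCNAB1, KCNH1, KCNK3, KCNT2, KCNS1, KCNH3 and KCNC1. Of these, KCNH3 and KCNC1 had at most 8 reads in any library. Taken library by library, TNF-α replicate 1 had 11 of the 36 genes with reads in all 6 libraries above and 14 below the NC range in FPKM, replicate 2 had 18 above and 13 below, and replicate 3 had 14 above and 17 below. Within the NC range were 11, 5 and 5 of the 36 in replicates 1, 2 and 3 (30.6%, 13.9% and 13.9%). Over all 12136 genes tested, a set filtered at 1 FPKM, the shares within it were 35.2%, 7.14% and 7.93%. The shares of these genes above and below it were 30.5% and 34.3%, 49.3% and 43.5%, and 48.5% and 43.6%.

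Leaving out TNF-α replicate 1 brought 6 of the 9 genes past the adjusted threshold, KCNK1, KCNMA1 and KCNJ8 higher and KCNE4, KCNJ2 and KCNQ5 lower, beside 79.4% of all genes tested. Leaving out TNF-α replicates 2 and 3 instead brought 2 of 9, KCNK1 higher and KCNN4 lower, beside 6.03%. KCNK1 alone passed in both of these limma fits. In limma-voom with the same 2 libraries left out, KCNK1 and KCNMA1 were higher and KCNE4 and KCNN4 lower, 4 of 35 beside 9.48% of all genes, and without TNF-α replicate 1 it called 16 of 35, these 4 among them, beside 69.7%. Quantile normalization of all 6 libraries called 1 of 9, KCNK1, beside 1.52%. The values of these 4 genes had the same direction in each of the 22 alternative settings, the log2 fold change ranging from 0.37 to 0.88 for KCNK1, 0.16 to 1.03 for KCNMA1, -1.25 to -0.39 for KCNE4 and -0.92 to -0.07 for KCNN4. These settings refit the same 6 libraries or a part of them, and the 4 genes were picked from such fits. The shared direction is therefore no separate evidence, and KCNMA1 entered the limma test only through its TNF-α values.

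**Figure D4:**
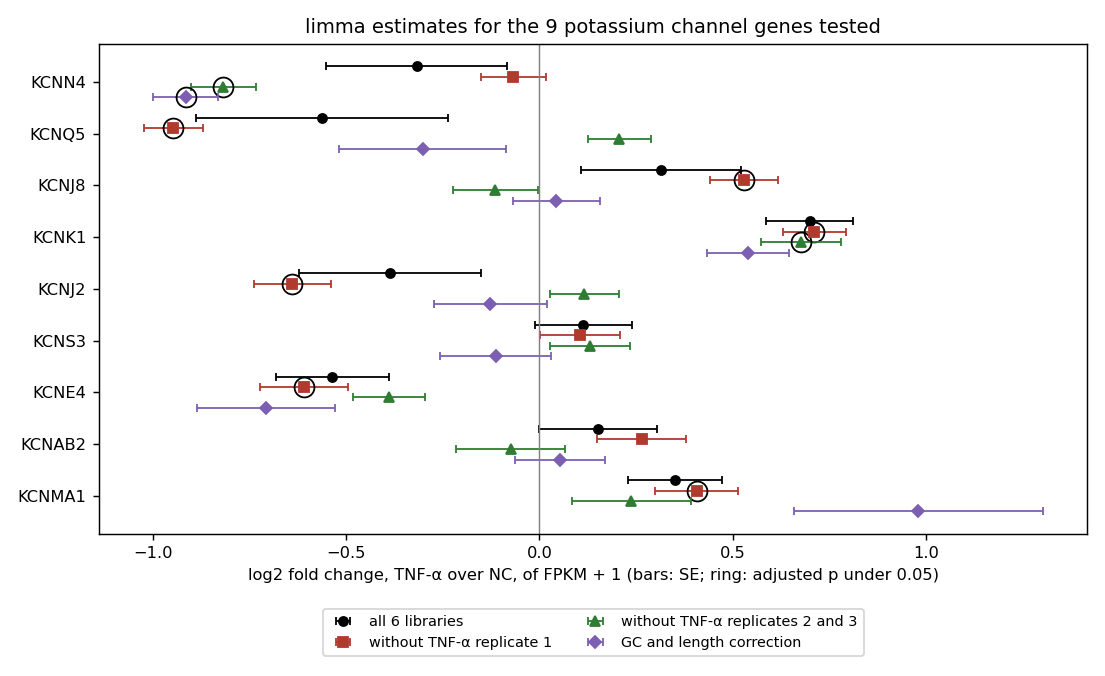
log2 fold change (TNF-α over NC, log2(FPKM + 1) scale) with SE bars for the 9 genes tested, in 4 limma fits: all 6 libraries, without TNF-α replicate 1, without TNF-α replicates 2 and 3, and with the GC and length correction. A ring marks an adjusted p under 0.05. No estimate from the uncorrected fit of all 6 libraries carries one, and with the GC and length correction KCNN4 does. The estimates of KCNQ5, KCNJ2, KCNJ8 and KCNAB2 change sign between fits with different TNF-α libraries.

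Proteins that bind or regulate these channels, and other genes of potassium transport, gave no calls either. Of 26 partner genes (calmodulins, anchoring and scaffold proteins, sulfonylurea receptors, ubiquitin ligases and others), 15 were tested. In limma and in limma-voom on all 6 libraries 0 passed, beside 1.01% and 0.523% of all genes in these fits. An unadjusted limma p under 0.05 was reached by 2 that were higher and 2 that were lower, beside 24.2% of all genes tested. On the log2(FPKM + 1) scale the differences of largest size were those of CSNK2B (a casein kinase 2 subunit), with 3.54 to 3.86 FPKM in NC and 4.17, 20.9 and 14.7 FPKM in TNF-α (log2 fold change 1.35, SE 0.51, limma adjusted p = 0.195), AKAP9 (an anchoring protein of the KCNQ1 channel), with 6.16 to 6.51 FPKM in NC and 6.60, 1.98 and 1.83 FPKM in TNF-α, and DLG1 (a scaffold protein that clusters Kv and Kir channels), with 17.3 to 18.0 FPKM in NC and 18.2, 8.03 and 9.0 FPKM in TNF-α. For all 3, TNF-α replicates 2 and 3 lay further from the NC libraries than TNF-α replicate 1 did. NEDD4L, a ubiquitin ligase that acts on several ion channels and chosen after its values were seen, had instead 3.09, 2.97 and 3.36 FPKM in NC and 5.35, 5.02 and 4.28 FPKM in TNF-α, all 3 above the NC libraries (log2 fold change 0.50, SE 0.13, limma adjusted p = 0.164). Of 21 other genes of potassium transport (pumps, HCN and TMEM175 channels, exchangers and others), 11 were tested and 0 passed in limma or in limma-voom on all 6 libraries. Here 1 that was higher and 2 that were lower reached an unadjusted limma p under 0.05, beside the same 24.2%. FXYD5, a sodium pump regulator, had 30.7 to 35.1 FPKM in NC and 38.9, 135 and 103 FPKM in TNF-α (log2 fold change 1.3, limma adjusted p = 0.195). ATP1B1, the β1 subunit of that pump, had 59.1 to 62.4 FPKM in NC and 48.3, 33.3 and 36.0 FPKM in TNF-α (log2 fold change -0.64, limma adjusted p = 0.195), and TMEM175, the lysosomal potassium channel, had 5.66 to 6.65 FPKM in NC and 5.39, 12.4 and 11.5 FPKM in TNF-α.

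Promoter sequence was set beside detection, to describe how the genes that were read differed from those that were not. RefSeq windows of 300 bases on GRCh38.p14, from 250 before to 50 after the start site, were at hand for 71 of the 96 genes. For a symbol with several start sites the first listed was used, so a window need not be the main promoter. That of KCNA3, at chr1:110671726-110672025, lay past the end of the counted minus-strand gene (110672465 to 110675033). The KCNG2 window, at chr18:79797688-79797987, lay far before the counted plus-strand gene (79863668 to 79900184). Both windows were kept in the values below. The median ratio of observed to expected CpG was 0.745 for the 29 genes with reads in all 6 libraries, 0.609 for the 24 with reads in 1 to 5 and 0.329 for the 18 without a read, beside 0.580 over 27305 promoters. Those 27305 were neither split by detection nor limited to protein-coding genes. Whether other genes differ in the same way by detection was therefore not tested. The GC box GGGCGG, bound by Sp1-type factors, was found on either strand in 72.4%, 66.7% and 33.3% of these 3 sets, in 60.6% of the 71 and in 44.6% of all promoters. TATAAA was found in 8.45% of the 71 and 12.0% of all promoters. A consensus of NF-kB, the transcription factor activated by TNF-α, was matched in 3 of the 71 (4.23%, against 5.72% of all promoters), those of KCND1, KCNK6 and KCNK18, and in none of the 8 tested genes with a window. These are matches of letters and not measured sites.

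**Figure D5:**
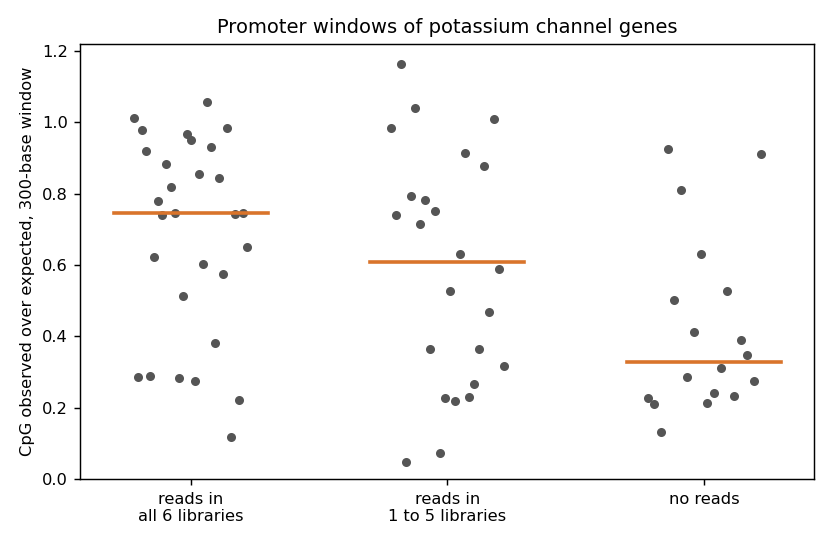
Ratio of observed to expected CpG in the 300-base promoter window (vertical axis, no unit) of the 71 potassium channel genes with a window, in 3 sets by the number of libraries with reads. Points are genes, spread sideways only to keep them apart, and orange lines are the medians of 0.745, 0.609 and 0.329.

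Windows are shown for the genes on which this comparison turns: KCNK1, with the smallest p, KCNN4, with the highest level, and KCNK6 and KCND1, the measured genes with a match to the NF-kB consensus. Each is written 5′ to 3′ on the strand of the gene (plus at chr1:233613856-233614155 for KCNK1 and chr19:38319595-38319894 for KCNK6, minus at chr19:43780924-43781223 for KCNN4 and chrX:48971795-48972094 for KCND1), and capitals mark GGGCGG, the NF-kB consensus and TATAAA on either strand.
KCNK1: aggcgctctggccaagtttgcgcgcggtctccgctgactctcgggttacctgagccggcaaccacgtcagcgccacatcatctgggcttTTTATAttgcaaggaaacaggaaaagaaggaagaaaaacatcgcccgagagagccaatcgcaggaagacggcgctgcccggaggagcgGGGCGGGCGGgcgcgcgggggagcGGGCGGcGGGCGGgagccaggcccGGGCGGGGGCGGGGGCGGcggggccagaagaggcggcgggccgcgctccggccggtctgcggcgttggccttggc
KCNN4: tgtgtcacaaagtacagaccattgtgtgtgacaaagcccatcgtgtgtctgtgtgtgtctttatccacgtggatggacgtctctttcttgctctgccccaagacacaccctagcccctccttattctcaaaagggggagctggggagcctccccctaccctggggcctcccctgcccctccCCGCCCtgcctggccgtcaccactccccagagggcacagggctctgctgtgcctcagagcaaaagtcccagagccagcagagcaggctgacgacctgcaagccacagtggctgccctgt
KCNK6: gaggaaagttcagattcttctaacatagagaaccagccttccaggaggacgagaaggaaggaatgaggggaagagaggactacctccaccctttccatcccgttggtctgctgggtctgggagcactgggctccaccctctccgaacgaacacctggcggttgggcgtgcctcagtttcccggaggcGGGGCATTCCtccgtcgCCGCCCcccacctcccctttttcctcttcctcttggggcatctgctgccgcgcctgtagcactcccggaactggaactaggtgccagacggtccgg
KCND1: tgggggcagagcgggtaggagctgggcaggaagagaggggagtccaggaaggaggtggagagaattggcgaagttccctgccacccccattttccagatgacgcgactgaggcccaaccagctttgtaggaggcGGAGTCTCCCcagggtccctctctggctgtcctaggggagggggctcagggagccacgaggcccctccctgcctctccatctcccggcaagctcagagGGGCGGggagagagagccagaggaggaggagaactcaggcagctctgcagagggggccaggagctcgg
The KCNK1 window held 7 GC boxes, some of them overlapping, and 1 TATAAA on the opposite strand, with a CpG ratio of 1.06. The KCNN4 window held 1 GC box and a CpG ratio of 0.223. In KCNK6 the match GGGGCATTCC began 63 bases before the start site, and in KCND1 the match GGAGTCTCCC began 116 bases before it, neither overlapping a GC box.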

How the data were processed

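Poly(A)-selected RNA of 6 cultures of U251 cells, 3 per group, was sequenced, and libraries were assigned to groups from their titles. The authors deposited gene expression as FPKM per library with gene lengths, without pooling or log transformation. The submitters' processing notes name HISAT2 2.0.5, StringTie 1.3.3b, featureCounts 1.5.0, DESeq2, edgeR and GATK 3.7. The use of strand in counting was not given in the sources used here, so that reads of overlapping genes cannot be told apart. All 58735 identifiers, names, positions and lengths equalled GENCODE release 29 (Ensembl 94) on GRCh38. A further 6 per-sample columns could be matched to no sample and were not used here.

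Within a library, 100% of the products of FPKM and length were whole multiples of the same step (tolerance 0.001 of a read). This gave reads, used for read counts, RPM and limma-voom. Even counts were in excess (in NC replicate 1, 2381 genes had 2 reads and 1485 had 1), so mates of a pair may have been counted singly, and floors of 3 reads cover counting error only.

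Genes with at least 1 FPKM in at least 3 of 6 libraries (12136) were tested as log2(FPKM + 1), with a pseudocount of 1 that understates changes of low genes, with limma 3.58.1 in R 4.3.3 (lmFit, eBayes with trend, two-sided, Benjamini-Hochberg over the genes tested). limma-voom took genes with at least 10 reads in at least 3 libraries. The limma fit on log2(FPKM + 1) was tested on simulated data, and limma-voom was not. The simulated libraries were drawn from the NC means with the same spread in both groups. They lacked the features that set TNF-α replicates 2 and 3 apart, so the simulation does not show how the fit performs with such libraries. Tables and figures were made in Python 3.11.15 with pandas 2.3.3, numpy 2.4.6 and matplotlib 3.10.9, and the exact permutation test with scipy 1.17.1. Named genes were the genes tested, the next 10 by mean FPKM and, in the lists of partners and of other potassium transport genes, the 3 with the largest absolute log2 fold change, and others are marked as chosen later. Some genes of the set are not reported here by name. The genes, the lists and the 9 classes were chosen with earlier results of these data known. The alternatives were other pseudocounts, filters and normalizations, limma-voom, other eBayes options, a replicate block, a gene length correction and leaving out libraries. The GC and length correction (splines with 5 degrees of freedom) and limma-voom without TNF-α replicate 1 or without replicates 2 and 3 were chosen after seeing the data. GC content came from the longest GENCODE transcript. Promoter windows came from RefSeq.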

Additional observations from a re-analysis of the deposited data

How the results depend on the processing

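The count of potassium channel genes past the threshold, 0 of 9, became 1 with quantile normalization (KCNK1), 1 with the GC and length correction (KCNN4), 2 with TNF-α replicates 2 and 3 left out together, and 0 to 6 when each library was left out in turn, the 6 coming without TNF-α replicate 1. In limma-voom it was 16 of 35 without TNF-α replicate 1 and 4 of 35 without TNF-α replicates 2 and 3. The same settings moved the count of all genes, 123, to 185 (quantile), 247 (GC and length), 732 (replicates 2 and 3 left out), 11600 and 1577 (the limma-voom fits), 58 with no filter on low values, 58 in TPM, and 10 to 9630 when each library was left out, the highest without TNF-α replicate 1. The partner list, 0 genes, had 10 and 3 in those limma-voom fits, 1 with TNF-α replicates 2 and 3 left out and 0 to 11 on leaving out each library. The list of other potassium transport genes, also 0, had 8 and 3, 1, and 0 to 9, and 1 with the GC and length correction. The median log2 fold change of the tested genes, 0.11, was -0.31 in TPM (all genes -0.42), -0.21 with the length correction and -0.11 with GC and length, and over the 35 genes of limma-voom -0.61 on all libraries, -0.45 without TNF-α replicate 1 and -0.16 without replicates 2 and 3.

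Signs turned for 5 genes. KCNQ5 was 0.21 and KCNJ2 0.11 in limma-voom without TNF-α replicates 2 and 3, and 0.21 and 0.12 in limma. KCNJ8 was -0.11 in TPM, -0.056 with the length correction, and -0.17 and -0.11 without these libraries in limma-voom and limma. KCNS3 was -0.31 in TPM, -0.11 in limma-voom, -0.24 there without TNF-α replicate 1, -0.21 with length and -0.11 with GC and length. KCNAB2 was -0.21 in TPM, -0.012 in limma-voom, and -0.16 and -0.075 without TNF-α replicates 2 and 3. The cause was not tested. The summed level was lower in TNF-α in all 7 alternatives, but the difference was -0.083 FPKM without TNF-α replicate 1, against -2.002 over all libraries, and -60.1 in TPM, without overlap (exact permutation p = 0.1, the smallest possible).

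Samples of the same replicate number did not deviate together (correlations -0.01, -0.18 and 0.12), so the numbers were not taken as pairs. With the replicate block 24 of all genes and 0 potassium channel genes passed.

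Most of the 36 genes with reads in all libraries had under 100 reads in at least 1 of them, where counting error alone is large, and levels of genes without a read are limited only by 3 reads. With 3 libraries a group, of which 2 TNF-α libraries stood apart, a missed threshold does not show that a gene did not differ.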

Other observations

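Of the 21 genes of other biotypes that share a KCN symbol, 9 had no read in any library and the others were at low levels. KCNQ1OT1, the antisense transcript of the imprinted KCNQ1 locus, had 0.167, 0.129 and 0.130 FPKM in NC and 0.114, 0.0345 and 0.0422 FPKM in TNF-α libraries, all 3 below the NC libraries and replicate 1 closest to them, while KCNQ1 itself had no read. KCNJ2-AS1, which overlaps KCNJ2 over 7.58% of its length, had 0.227, 0.200 and 0.306 FPKM in NC and 0.204, 0.0948 and 0.152 FPKM in TNF-α libraries, with overlap. KCNQ5-IT1, within an intron of KCNQ5, had 0.246, 0.217 and 0.0553 FPKM in NC and 0.221, 0.822 and 0.293 FPKM in TNF-α libraries, also with overlap.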
